A study of Homo sapiens with 6 samples.

Results

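Mitochondrial ribosomal protein genes were taken as every row of the deposited expression table whose symbol starts with MRPL or MRPS followed by a number and at most a letter A to C, with pseudogenes left out. The rule gave 78 of the 58735 genes in the table, 49 with an MRPL symbol and 29 with an MRPS symbol, on 21 chromosomes. All 78 were among the 15089 genes with enough counts to be tested. The rule used only the symbols and no measured value.

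The RNA-seq libraries came from PANC-1, a cell line established from a human adenocarcinoma of the pancreatic duct. The control group, si-NC (n = 3), was PANC-1 transfected with control siRNA, and its samples carry the transfection label WT. The other group, si-METTL16 (n = 3), was PANC-1 transfected with siRNA against METTL16, an RNA methyltransferase that places N6-methyladenosine on U6 small nuclear RNA and on the mRNA of MAT2A. Both groups share the line and the culture medium. The siRNA sequence used for sequencing and the time from transfection to harvest are not given in the sources used here, and the study's methods call the cells stably transfected. The 3 samples of a group are described as biological triplicates of a single line, so p-values set the group difference against the spread between these cultures.

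Total counts ran from 15725298 to 18054436 per sample. Levels are given as CPM, the counts of a gene scaled to a common library total, with library sizes corrected by the trimmed mean of M-values. METTL16 itself stood at 91.5, 96.7 and 101 CPM in the si-NC samples and at 34.8, 33.9 and 34.9 in the si-METTL16 samples, which is 35.9% of control (log2 fold change -1.48, SE 0.07). Of 6 ductal and epithelial marker genes, KRT8, KRT18, KRT19 and SOX9 had at least 886 counts in every sample, whereas KRT7 had 58 to 133 and EPCAM 98 to 209. Of 11 markers of other cell types, PTPRC, CD3E, PECAM1, VWF, INS, GCG, PRSS1 and CPA1, which mark leukocytes, endothelium, islet and acinar cells, had at most 5, but CD68 of macrophages had 91 to 155 and COL3A1 and COL1A1 of fibroblasts had 133 to 285 and 5459 to 15086. KRT7, KRT19 and SOX9 fell in si-METTL16, KRT19 by 1.40 on the log2 scale, and CD68, COL3A1 and COL1A1 rose. Their part in the results below was not tested. In bulk RNA, fewer cells of a kind and less RNA per cell cannot be told apart.

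The mitochondrial ribosome translates the few proteins encoded by mitochondrial DNA, which are subunits of the respiratory chain and ATP synthase. Its ribosomal RNAs are transcribed in the mitochondrion, whereas all of its proteins are encoded in the nucleus, translated in the cytosol and imported. MRPL genes encode proteins of the large subunit, which forms peptide bonds, and most MRPS genes encode proteins of the small subunit, which decodes mRNA. Some of these proteins have bacterial counterparts and others exist only in mitochondria.

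The comparison asked which of these transcripts differed between METTL16-silenced and control cells. A gene was called when its p in the quasi-likelihood test of edgeR, adjusted over all tested genes by the method of Benjamini and Hochberg, was under 0.05. Of the 78 genes, 20 were called (25.6%), against 35.9% of all genes tested. The 8 called higher made up 10.3%, against 18.4% of all genes tested, and the 12 called lower made up 15.4%, against 17.5%. Thus calls were not more common among these genes than in the table as a whole, and they went in both directions. The median log2 fold change of the 78 was 0.02, beside 0.00 over all genes tested, with 41 values above 0 and 37 below.

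The changes were small in size. The median absolute log2 fold change was 0.22 over the 78 genes and 0.33 over all genes tested, and among called genes it was 0.40 and 0.61. These comparisons were not matched for level: by mean CPM, the median member stood at percentile 68.6 of the genes tested, counted from the lowest. None of the 78 was called with a fitted change of 2-fold or more (1 on the log2 scale), a limit that 1172 genes (7.77% of those tested) passed. Of the 58 genes that were not called, 46 had a 95% interval lying wholly within a 1.5-fold change either way. Larger changes of these 46 thus lay outside their intervals. Of the same 58 genes, 12 had an adjusted p between 0.05 and 0.1. The 46 and the 12 overlap and do not cover all 58: MRPL55 and MRPS18A, for example, are in both, and MRPL34 and MRPL49 are in neither. In 35 of the 78 (44.9%) the si-NC and si-METTL16 samples did not overlap in CPM, against 50.9% of all genes tested, and these 35 included all 20 that were called.

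**Figure D1:**
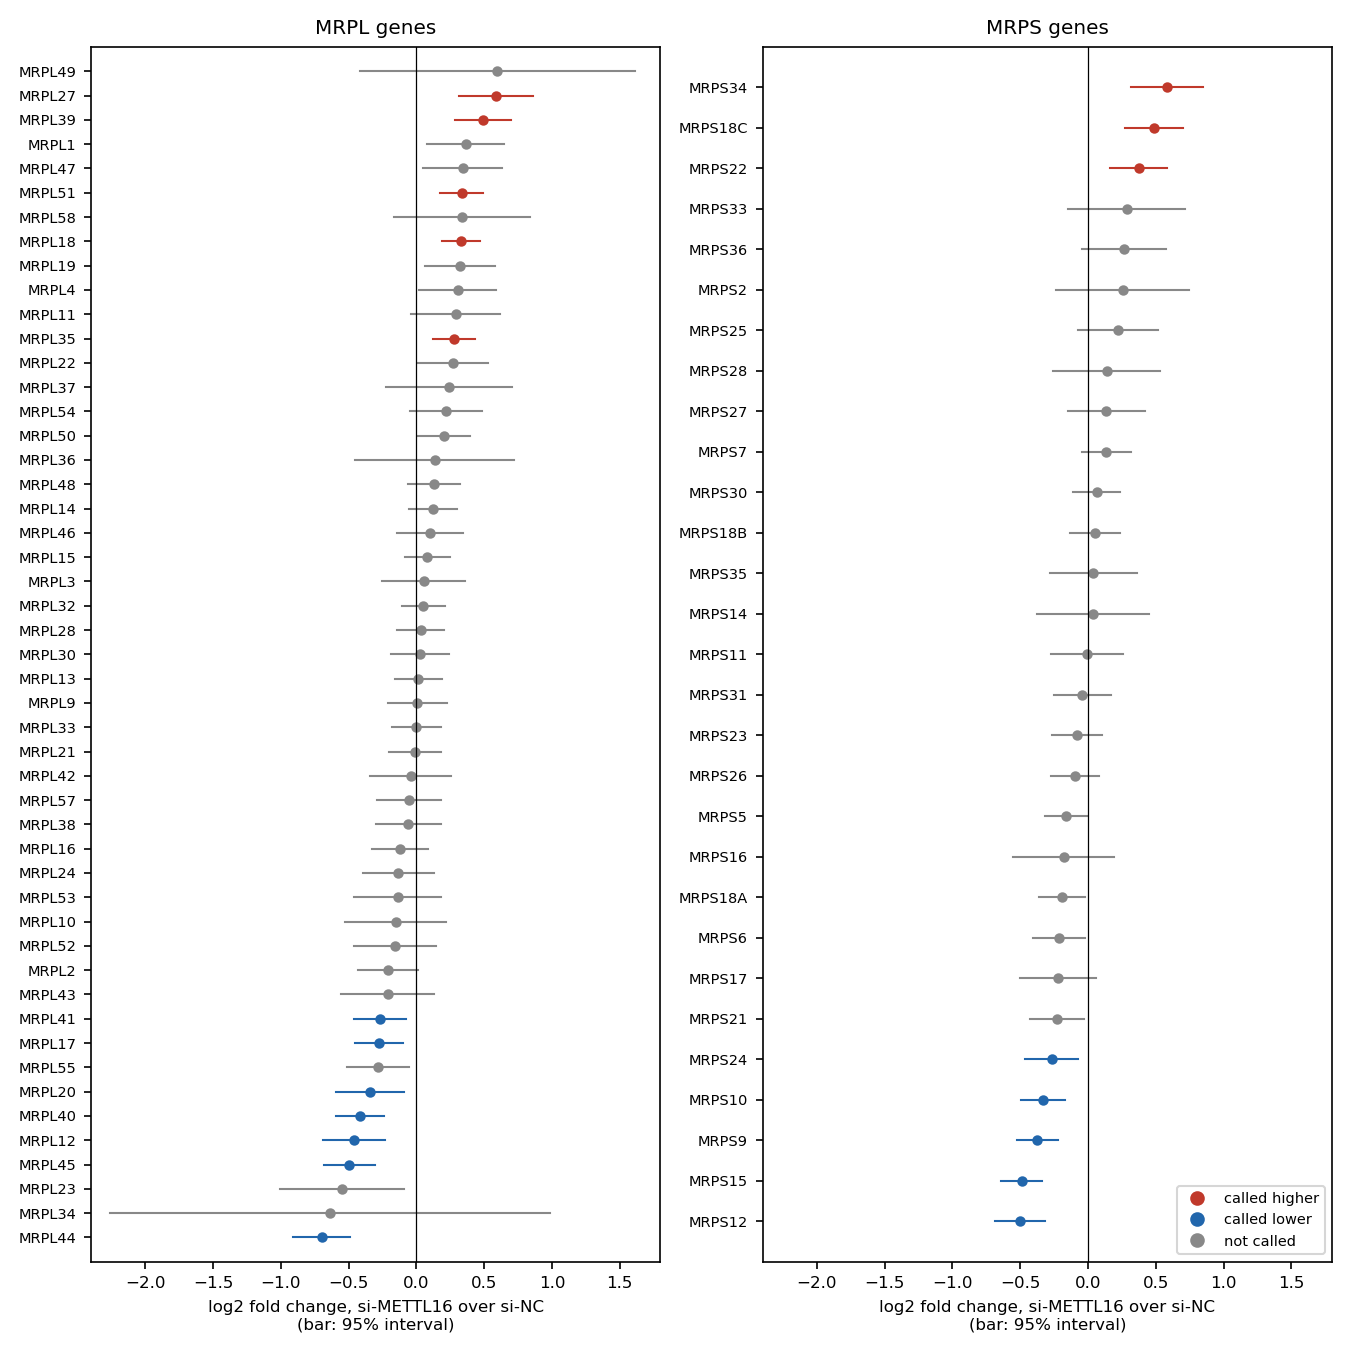
Log2 fold change of each of the 78 genes, si-METTL16 over si-NC (horizontal axis), as points with their 95% intervals, MRPL genes on the left and MRPS genes on the right, ordered by value and coloured by the call. The 20 called genes lie at both ends between -0.70 and 0.59, and the widest interval, from -2.26 to 0.99, belongs to MRPL34.

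In sum over the 78 genes, the share of all counts was 0.453%, 0.479% and 0.473% in the si-NC samples (0.469% ± 0.0135, SD, n = 3) and 0.443%, 0.485% and 0.461% in the si-METTL16 samples (0.463% ± 0.0209, SD, n = 3). The groups overlapped, and the difference of the means was smaller than either SD. Summed MRPL levels ran from 2580 to 2710 CPM in si-NC and from 2680 to 2960 CPM in si-METTL16, and summed MRPS levels from 1930 to 2060 CPM and from 1810 to 1930 CPM. The MRPL sum of 2960 CPM was that of si-METTL16 replicate 2. In that sample MRPL49 alone stood at 157 CPM, beside 62.4 and 44.2 CPM in replicates 1 and 3 of the group.

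The 4 genes at the ends of the called list were MRPL27 and MRPS34 on the higher side and MRPL44 and MRPS12 on the lower side. Their promoter windows are shown because these are the largest called changes among the 78 genes. Each window holds 250 bases before and 50 bases after the RefSeq gene start (GRCh38.p14), written 5′ to 3′ on the strand of the gene, and capitals mark exact matches on either strand to 4 short motifs: CCGGAAGT (ETS factors), AAGATGGC (YY1), GCATGCGC (the core of the NRF1 motif) and CACGTG (E-box). The windows lie at chr17:50373135-50373434 (minus strand), chr16:1773085-1773384 (minus strand), chr2:223957213-223957512 (plus strand) and chr19:38930694-38930993 (plus strand).
MRPL27: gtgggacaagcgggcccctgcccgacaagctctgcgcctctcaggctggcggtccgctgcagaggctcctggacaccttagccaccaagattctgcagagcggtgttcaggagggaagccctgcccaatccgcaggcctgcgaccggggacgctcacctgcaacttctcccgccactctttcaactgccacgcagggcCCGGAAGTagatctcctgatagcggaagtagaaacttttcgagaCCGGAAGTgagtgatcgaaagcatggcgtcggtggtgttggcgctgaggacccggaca
MRPS34: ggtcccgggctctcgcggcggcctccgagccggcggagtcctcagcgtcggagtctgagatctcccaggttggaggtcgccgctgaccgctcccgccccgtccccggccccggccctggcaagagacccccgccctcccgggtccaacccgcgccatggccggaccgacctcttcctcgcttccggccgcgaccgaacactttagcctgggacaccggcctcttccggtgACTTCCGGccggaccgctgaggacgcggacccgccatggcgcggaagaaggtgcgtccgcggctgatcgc
MRPL44: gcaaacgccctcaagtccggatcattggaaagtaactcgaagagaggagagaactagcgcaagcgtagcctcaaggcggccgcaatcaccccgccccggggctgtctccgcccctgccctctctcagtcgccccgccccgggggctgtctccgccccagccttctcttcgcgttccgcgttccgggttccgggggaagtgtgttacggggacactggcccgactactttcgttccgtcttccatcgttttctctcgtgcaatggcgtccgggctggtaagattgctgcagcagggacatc
MRPS12: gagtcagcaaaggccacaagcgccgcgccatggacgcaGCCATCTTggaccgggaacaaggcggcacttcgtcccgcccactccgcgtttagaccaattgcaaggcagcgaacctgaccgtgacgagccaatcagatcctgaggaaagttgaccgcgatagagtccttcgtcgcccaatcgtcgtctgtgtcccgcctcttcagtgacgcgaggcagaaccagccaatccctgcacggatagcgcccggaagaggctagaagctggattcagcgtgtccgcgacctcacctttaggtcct
The MRPL27 window holds 2 matches to the ETS motif and the MRPS34 window holds 1, on the opposite strand. The MRPS12 window holds 1 match to the YY1 motif, again on the opposite strand, and the MRPL44 window holds no match to the 4 motifs.

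Of the 78 genes, 69 had a RefSeq window, and 30 of these (43.5%) held at least 1 of the 4 motifs, against 16.2% of all 27305 windows. The full set of windows was not limited to genes tested here, whereas all 78 genes were tested. The YY1 motif was in 20 (29.0%), against 3.03% of all windows. The ETS motif was in 11 (15.9%), against 4.44%, and the NRF1 core was in 6 (8.7%), against 3.27%. The E-box was also in 6 (8.7%), against 7.43%. Among the 7 called-higher genes with a window, 4 held the ETS motif and 1 the YY1 motif, and among the 12 called-lower genes 1 held the ETS motif and 5 the YY1 motif. The NRF1 core and the E-box were each in 1 of the 7 and in 1 of the 12. These splits were not tested. The median GC content was 60.3% over these windows and 58.3% over all. A match states only that the letters occur there, and whether a factor binds was not measured.

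Among large subunit genes with a bacterial counterpart, 3 of 29 rose and 3 fell, with a median log2 fold change of 0.03. Of all genes tested, 18.4% rose and 17.5% fell. MRPL27 (ENSG00000108826) encodes the counterpart of bacterial L27, which lies near the peptidyl transferase centre. It was measured at 42.3, 57.9 and 48.0 CPM in si-NC replicates 1 to 3 and at 72.8, 75.0 and 74.7 CPM in si-METTL16. Every si-METTL16 sample lay above every si-NC sample, and the si-NC samples were the more spread (49.4 ± 7.93 against 74.1 ± 1.2 CPM, SD, n = 3 each). MRPL27 rose by 0.59 on the log2 scale (SE 0.12, adjusted p = 0.0076).

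MRPL18, whose protein sits in the central protuberance at the top of the large subunit, rose from 94.2, 91.2 and 95.2 CPM to 114, 123 and 116 CPM (log2 fold change 0.33, SE 0.06, adjusted p = 0.00524). MRPL35 rose from 88.2, 95.8 and 85.4 CPM to 107, 109 and 110 CPM (log2 fold change 0.28, SE 0.07, adjusted p = 0.0155). In both genes the groups did not overlap. The call of MRPL35 was lost without si-NC replicate 1 (adjusted p = 0.0531) and without si-NC replicate 3 (adjusted p = 0.0649).

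MRPL12 encodes the stalk protein that recruits translation factors to the ribosome. It went from 69.4, 87.1 and 77.9 CPM in si-NC to 56.9, 54.1 and 59.7 CPM in si-METTL16, with no overlap and the wider spread in si-NC. Its log2 fold change was -0.46 (SE 0.10, adjusted p = 0.0101). In the GENCODE v44 annotation, MRPL12 shares 701 exonic bases with the gene ENSG00000262660 on the same strand, and the part of shared reads was not tested. MRPL10 and MRPL11, the other 2 genes of the stalk and its base, were not called. MRPL20 went from 94.0, 122 and 105 CPM to 77.8, 84.5 and 90.2 CPM (log2 fold change -0.34, SE 0.11, adjusted p = 0.0419). The highest si-METTL16 sample of MRPL20 lay close below the lowest si-NC sample, and with 1 sample dropped at a time it was called again only without si-NC replicate 1, with adjusted p from 0.0558 to 0.12 in the other 5 fits. The third called-lower gene of this list was MRPL17.

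Among the 20 large subunit genes listed as specific to mitochondria, 2 rose and 4 fell, with a median log2 fold change of 0.01. The shares over all genes tested were 18.4% higher and 17.5% lower. MRPL44 (ENSG00000135900) encodes a protein with a fold like that of ribonuclease III, and variants in it cause infantile cardiomyopathy. Its levels were 65.0, 69.2 and 67.0 CPM in si-NC and 36.6, 43.9 and 43.3 CPM in si-METTL16. The lowest si-NC sample stood well above the highest si-METTL16 sample, and MRPL44 fell by 0.70 on the log2 scale (SE 0.09, adjusted p = 0.00127) to 61.6% of control, the largest called change among the 78 genes.

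MRPL45 encodes a protein that holds the ribosome at the inner mitochondrial membrane. It went from 58.2, 56.9 and 56.9 CPM to 41.4, 43.2 and 37.6 CPM, without overlap (log2 fold change -0.49, SE 0.08, adjusted p = 0.00315). Rows of its pseudogenes held 8.17% of the counts of gene and pseudogenes together, and reads could be split between these copies. MRPL40 went from 39.1, 39.8 and 41.6 CPM to 29.9, 31.2 and 29.2 CPM (log2 fold change -0.42, SE 0.08, adjusted p = 0.0054), and the samples of each group lay close together. MRPL41 was the fourth called-lower gene.

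MRPL39, related in sequence to threonyl-tRNA synthetase, rose from 50.7, 61.9 and 57.7 CPM to 77.0, 83.2 and 79.3 CPM (log2 fold change 0.49, SE 0.09, adjusted p = 0.00521). MRPL51 rose from 104, 114 and 105 CPM to 131, 144 and 133 CPM (log2 fold change 0.33, SE 0.07, adjusted p = 0.00812). Neither gene overlapped between groups. The exons of MRPL51 overlap those of NCAPD2, a condensin subunit gene on the opposite strand, by 383 bases in GENCODE v44, and NCAPD2 counts went from 1248, 1347 and 1307 to 2586, 3142 and 3351 (log2 fold change 1.26). The strand setting of the counting is not given in the sources used here, so reads in the shared stretch cannot be assigned, and their part in the MRPL51 change was not tested.

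Grouped by place in the large subunit, 3 of the 7 genes around the exit tunnel for the nascent chain fell and none rose (MRPL17, MRPL44 and MRPL45, median log2 fold change -0.27), where 17.5% of all genes tested fell and 18.4% rose. With so few genes, these counts are given as a description only. Of the 5 central protuberance genes, MRPL18 rose and MRPL40 fell.

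Among the 15 small subunit genes with a bacterial counterpart, 1 rose and 5 fell, where 18.4% of all genes tested rose and 17.5% fell, and the median log2 fold change was -0.21. Whether the subunit lists differ was not tested. MRPS12 (ENSG00000128626) encodes a protein of the decoding centre. It stood at 198, 212 and 205 CPM in si-NC and at 129, 151 and 153 CPM in si-METTL16. The groups were far apart, with replicate 1 lowest in each, and MRPS12 fell by 0.50 on the log2 scale (SE 0.08, adjusted p = 0.00293).

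MRPS15 went from 76.5, 78.9 and 81.5 CPM to 55.1, 56.7 and 56.8 CPM (log2 fold change -0.49, SE 0.06, adjusted p = 0.00125). MRPS9 went from 60.2, 61.3 and 62.9 CPM to 47.0, 48.5 and 46.8 CPM (log2 fold change -0.37, SE 0.07, adjusted p = 0.00446). In both genes the highest sample of a group was at most 1.07 times the lowest, and the groups lay well apart. MRPS10, the gene with the highest deposited FPKM of the 78, went from 193, 171 and 180 CPM to 151, 146 and 136 CPM, also without overlap (log2 fold change -0.33, SE 0.07, adjusted p = 0.0094). MRPS24 was the fifth that fell.

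The gene that rose in this list was MRPS18C, 1 of 3 paralogs that encode variants of bacterial S18. It went from 34.1, 38.9 and 40.2 CPM to 53.1, 55.5 and 50.2 CPM, without overlap (log2 fold change 0.49, SE 0.09, adjusted p = 0.00597). Its exons share 1956 bases in GENCODE v44 with ABRAXAS1 on the opposite strand. ABRAXAS1 counts ran from 111 to 212 in si-NC and from 114 to 200 in si-METTL16. The part of shared reads in the MRPS18C change was not tested. The paralog MRPS18A, whose protein sits in the large subunit, stood at 40.8, 39.1 and 40.8 CPM in si-NC and 36.0, 34.5 and 35.3 CPM in si-METTL16 (log2 fold change -0.19, SE 0.07, adjusted p = 0.0754). The samples of MRPS18A did not overlap although the gene was not called. MRPS18B stood at 79.7, 85.0 and 92.5 CPM and at 91.0, 83.3 and 91.8 CPM, which overlapped (log2 fold change 0.05, 95% interval -0.14 to 0.24, adjusted p = 0.657). The 95% intervals of MRPS18C, from 0.27 to 0.70, and of MRPS18A, from -0.36 to -0.02, did not overlap, and the difference between the paralogs was not tested.

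Among the 9 small subunit genes specific to mitochondria, 2 rose and none fell, with a median log2 fold change of 0.14. Over all genes tested, 18.4% rose and 17.5% fell, and with so few genes these counts are a description only. MRPS34 (ENSG00000074071), in which variants cause Leigh syndrome, rose from 54.4, 56.3 and 61.5 CPM to 75.9, 100 and 82.2 CPM (log2 fold change 0.58, SE 0.11, adjusted p = 0.00712). Here the si-METTL16 samples were the more spread, with replicate 2 highest. MRPS22 rose from 48.5, 51.7 and 54.9 CPM to 62.6, 73.5 and 65.1 CPM (log2 fold change 0.38, SE 0.09, adjusted p = 0.0156). Its call was lost without si-NC replicate 1 (adjusted p = 0.0521). On the opposite strand in GENCODE v44, MRPS34 shares 341 exonic bases with EME2 and MRPS22 shares 6378 with COPB2. By the gene spans deposited with the counts, MRPS22 and COPB2 overlap by only 1624 bases, introns included. COPB2 had 6.44 times the mean count of MRPS22 and moved the other way (log2 fold change -0.32). The part of shared reads in these changes was not tested. None of the 5 genes outside the subunit lists, MRPL55, MRPS18A, MRPS18B, MRPS28 and MRPS36, was called; MRPS36 is now known as a subunit of the α-ketoglutarate dehydrogenase complex.

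**Figure D2:**
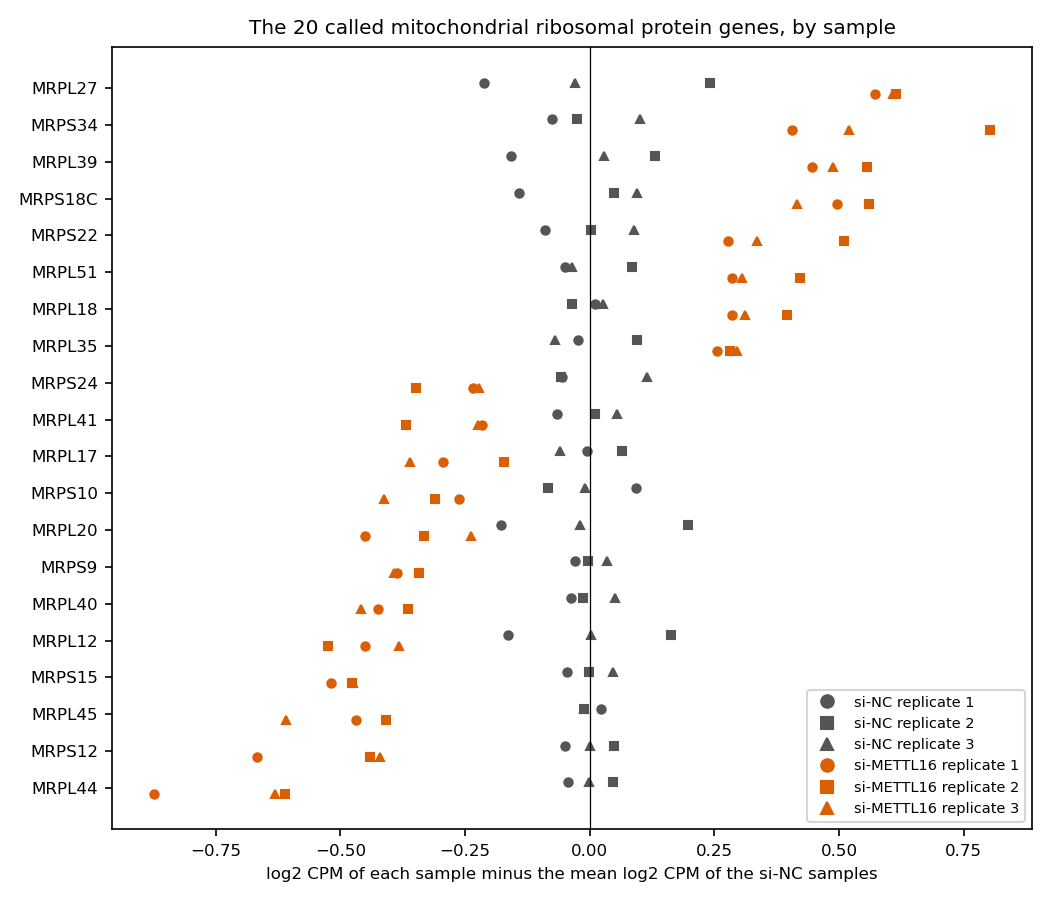
Log2 CPM of each sample minus the mean log2 CPM of the 3 si-NC samples (horizontal axis) for the 20 called genes, with si-NC in grey, si-METTL16 in orange and the replicate number as the marker shape. In all 20 genes the si-NC and si-METTL16 samples occupy separate ranges; 14 of the 20 stayed called whichever 1 of the 6 samples was dropped.

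The 14 genes called in every fit that left out 1 sample were 6 of the 8 called higher (MRPL27, MRPS34, MRPL39, MRPS18C, MRPL51 and MRPL18) and 8 of the 12 called lower (MRPL44, MRPS12, MRPL45, MRPS15, MRPL12, MRPL40, MRPS9 and MRPS10). The calls of MRPL17, MRPL41 and MRPS24 were kept in 2, 1 and 0 of these 6 fits. Each of these fits had 5 samples.

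Replicates of most of these genes lay close together. The highest CPM of a group was over 1.5 times the lowest in at least 1 group for 10 of the 78 genes (12.8%), against 33.0% of all genes tested, and the deposited FPKM gave the same number of genes. The excess was in si-NC for 4 genes and in si-METTL16 for 7, with MRPL34 in both. None of the 10 was called. The genes behind the 33.0% were not matched to the 78 for level.

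MRPL34 varied most. It was counted 625, 163 and 587 times in si-NC and 416, 348 and 72 times in si-METTL16, so that si-NC replicate 2 and si-METTL16 replicate 3 were far below the rest of their groups (3.85 and 6.33 times between highest and lowest CPM). Its log2 fold change of -0.64 had a 95% interval from -2.26 to 0.99. ABHD8, which overlaps MRPL34 on the opposite strand with 223 shared exonic bases, stood at 21.0 CPM in si-NC replicate 2 and at 19.6 CPM in si-METTL16 replicate 3, near the top of its range of 13.6 to 21.5 CPM.

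MRPL49, also a large subunit gene specific to mitochondria, was counted 1128, 950 and 893 times in si-NC and 1024, 2442 and 794 times in si-METTL16. Replicate 2 of si-METTL16 stood at 157 CPM beside 62.4 and 44.2 CPM in the others, a ratio of 3.54 between highest and lowest, and those others lay within or below the si-NC range of 50.9 to 66.8 CPM. The log2 fold change of MRPL49 was 0.60 (95% interval -0.41 to 1.61, adjusted p = 0.317), the highest estimate among the 78 genes, and it was -0.12 without si-METTL16 replicate 2 (adjusted p = 0.655). Of its overlapping neighbours, SYVN1 stood at 59.4 CPM in that sample, its lowest of the 6, and FAU at 188 CPM, within the 179 to 196 CPM of the other samples.

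MRPL36 stood at 18.6, 17.0 and 15.1 CPM in si-NC and at 22.5, 21.7 and 11.5 CPM in si-METTL16, where replicate 3 was low (ratio 1.97). Its log2 fold change was 0.14 (95% interval -0.45 to 0.72), and the groups overlapped. The other 7 genes over the limit, MRPL10, MRPL23, MRPL37, MRPL58, MRPS2, MRPS14 and MRPS33, had ratios from 1.51 to 1.79. MRPL34, MRPL36 and MRPL49 each had their lowest CPM of the 6 samples in si-METTL16 replicate 3.

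**Figure D3:**
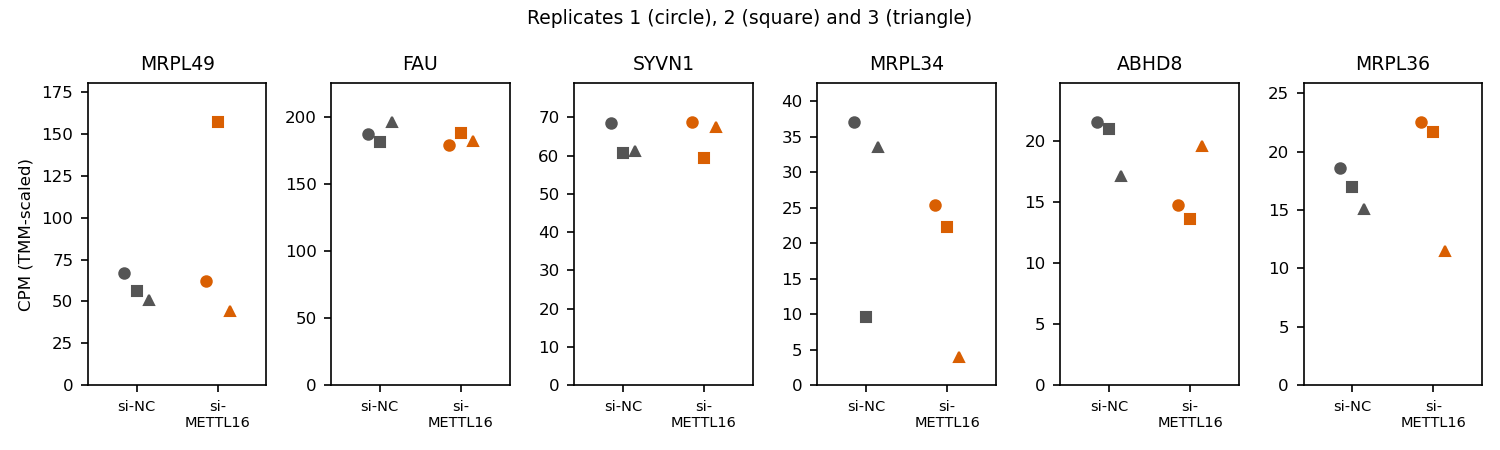
CPM of every sample (vertical axis, starting at 0) for MRPL49, MRPL34 and MRPL36 and for the neighbours that overlap MRPL49 (FAU, SYVN1) and MRPL34 (ABHD8), with replicates 1, 2 and 3 as circle, square and triangle. MRPL49 reaches 157 CPM in si-METTL16 replicate 2, where SYVN1 and FAU do not stand out, and MRPL34 drops to 9.6 CPM in si-NC replicate 2 and 4.01 CPM in si-METTL16 replicate 3.

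Transcript levels differed widely between these genes. The mean deposited FPKM (fragments per kilobase of gene length, scaled to the sample's total) over the 6 samples had a median of 11.4 and ran from 1.6 for MRPL55 to 77.1 for MRPS10. MRPL12 at 65.7 FPKM and MRPS12 at 53.9 FPKM followed MRPS10, and MRPL42 at 2.40 FPKM and MRPL23 at 2.67 FPKM were next to the lowest. These levels depend on the length used. The length implied by counts and FPKM was longer than the whole gene span in the table for 17 of the 78 genes, and for MRPL55 it was 10309 bases beside a span of 2634, so FPKM understates such genes.

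With CPM per kilobase of all GENCODE v44 exons of a gene, the level of MRPL55 was 8.76 and ranked 66 of 78 instead of 78. Most of the 78 genes stood higher by this measure than in FPKM, not only those with an implied length over their span. MRPL19, MRPS5, MRPS22, MRPS25 and MRPS27 stood lower. On this scale MRPS12 came first at 99.6, followed by MRPL51 at 87.9 and MRPS10 at 77.6 (117 ± 3.98, 77.8 ± 4.05 and 86.4 ± 5.15 in si-NC, SD, n = 3). MRPS25 was lowest at 1.78, below MRPL42 at 3.19 and MRPL23 at 3.54, and the si-NC values of these last 2 were 3.24 ± 0.536 and 4.20 ± 0.433 (SD, n = 3). The median was 19.2, and 45 of the 78 genes lay within 2-fold of it. This length also counts exons of every annotated isoform, used or not. Of the 3 genes with the highest FPKM, MRPS10, MRPL12 and MRPS12, the ranks on this scale were 3, 7 and 1.

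The genes at the low end of the FPKM order were not called. MRPL55 stood at 18.5, 18.1 and 17.8 CPM in si-NC and at 14.4, 14.2 and 16.1 CPM in si-METTL16 (log2 fold change -0.28, SE 0.10, adjusted p = 0.0567). MRPL23, a protein of the exit tunnel, stood at 11.1, 13.6 and 12.9 CPM and at 9.93, 6.22 and 9.46 CPM (log2 fold change -0.55, SE 0.19, adjusted p = 0.064). In both genes the si-METTL16 samples lay below all si-NC samples, and in MRPL23 replicate 2 of si-METTL16 was the lowest by far. MRPL42 stood at 58.5, 42.8 and 57.5 CPM and at 49.1, 51.0 and 54.2 CPM, with si-NC replicate 2 lowest and the groups overlapping (log2 fold change -0.04, 95% interval -0.34 to 0.26).

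**Figure D4:**
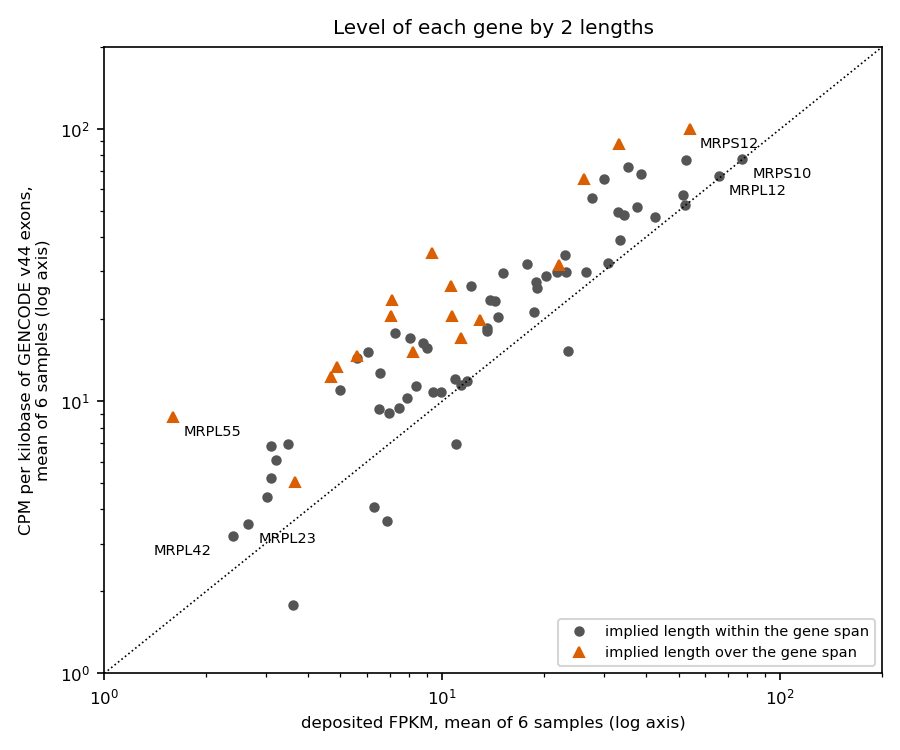
Mean level of the 78 genes over 6 samples by deposited FPKM (horizontal, log axis) and by CPM per kilobase of GENCODE v44 exons (vertical, log axis), with the dotted line marking equal values. Most of the 78 genes lie above the line, among them all 17 whose implied length exceeds their span (orange triangles), MRPL55 the farthest.

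The remaining parts of the mitochondrial translation system moved in both directions too, as did all genes tested, of which 18.4% rose and 17.5% fell. Of 5 tested mitoribosomal protein genes with other symbols, DAP3 (small subunit) rose, with a log2 fold change of 0.35 (SE 0.09, adjusted p = 0.0215), and AURKAIP1 fell by 0.44 on the log2 scale (SE 0.11, adjusted p = 0.0191). DAP3 was called in 3 and AURKAIP1 in 4 of the 6 fits that left out 1 sample.

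Of 27 assembly factor genes, 5 rose and 1 fell (median log2 fold change 0.01), beside 18.4% and 17.5% of all genes tested. RBFA, which binds small subunit rRNA during maturation, rose from 32.3, 25.3 and 36.6 CPM to 53.9, 61.7 and 53.2 CPM (log2 fold change 0.84, SE 0.14, adjusted p = 0.00397). RCC1L rose by 0.76 (SE 0.09, adjusted p = 0.00109) and METTL17, which binds the small subunit, rose by 0.59 (SE 0.12, adjusted p = 0.00847). TFB1M, which dimethylates adenosines of 12S rRNA, went from 22.3, 30.4 and 26.4 CPM to 13.4, 17.2 and 14.8 CPM (log2 fold change -0.80, SE 0.15, adjusted p = 0.00594). NGRN and MRM2 were the other 2 that rose, and the samples of MRM2 overlapped between the groups. MRM2 (adjusted p = 0.0476) was called again in 1 of the 6 fits on 5 samples.

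Of 17 translation factor and related genes, 3 rose and 3 fell (median log2 fold change 0.05), beside 18.4% and 17.5% of all genes tested. GFM1, the elongation factor G of mitochondria, rose by 0.64 (SE 0.07, adjusted p = 0.000834), MRRF, the recycling factor, by 0.51 (SE 0.11, adjusted p = 0.0106), and LRPPRC, which stabilises mitochondrial mRNAs, by 0.46 (SE 0.04, adjusted p = 0.00043). MTFMT, which formylates the initiator methionyl-tRNA, fell by 0.54 (SE 0.15, adjusted p = 0.0301), GUF1 fell by 0.37 (SE 0.10, adjusted p = 0.0287) and GFM2 fell by 0.22 (SE 0.07, adjusted p = 0.0477), all on the log2 scale. The calls of MTFMT, GUF1 and GFM2 were kept in 1, 2 and 0 of the 6 fits that left out 1 sample.

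Both mitochondrial rRNAs were higher in si-METTL16. MT-RNR1, the 12S rRNA of the small subunit, was counted 11626, 12503 and 12002 times in si-NC and 17043, 16413 and 18242 times in si-METTL16 (log2 fold change 0.56, SE 0.05, adjusted p = 0.000329). MT-RNR2, the 16S rRNA of the large subunit, rose less (log2 fold change 0.18, SE 0.05, adjusted p = 0.033), and it was called again in 2 of the 6 fits on 5 samples. The libraries were prepared with an mRNA kit, so these counts are of the rRNA that remained in them.

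**Figure D5:**
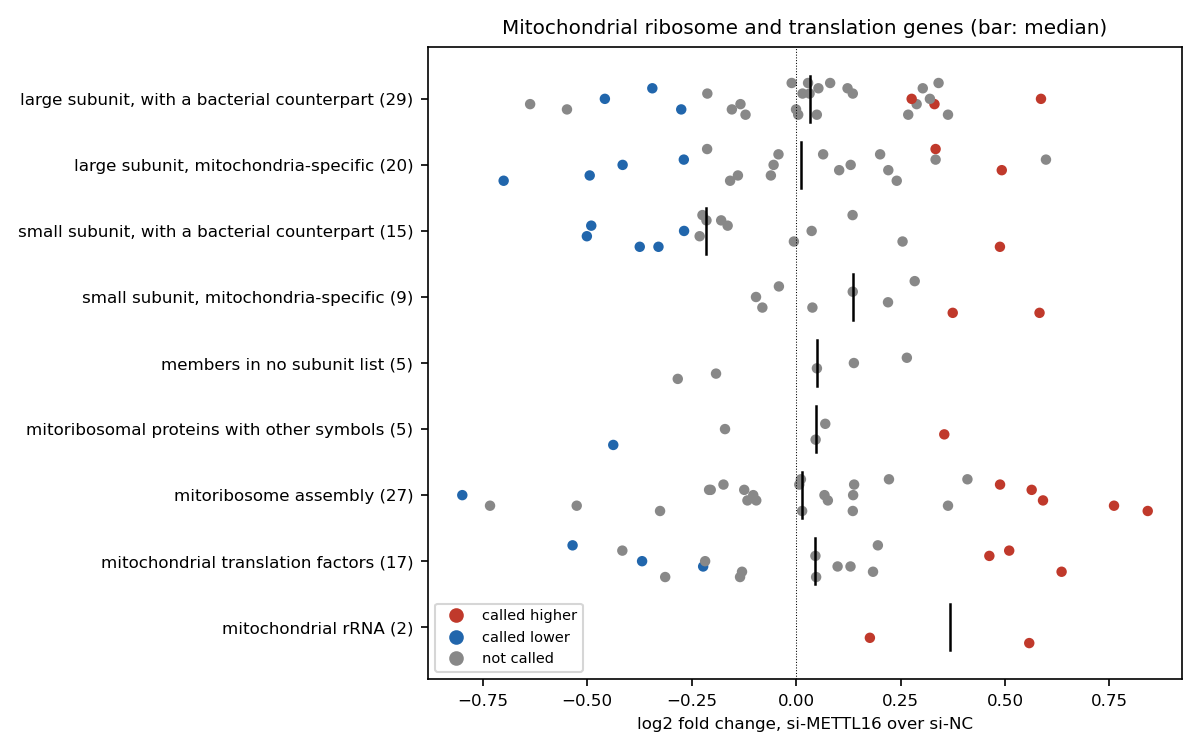
Log2 fold change, si-METTL16 over si-NC (horizontal axis), of every tested gene in the 4 subunit lists, the 5 genes outside them and 4 further lists of the mitochondrial translation system, 1 point per gene coloured by the call, with the median as a bar and the number of genes in brackets. Called genes lie on both sides of 0 in 6 of the 9 rows, and the medians of the 4 subunit lists run from -0.21 to 0.14.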

How the data were processed

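Total RNA from 6 PANC-1 cultures, 3 per group, was made into libraries with an mRNA kit and sequenced by a company on an Illumina HiSeq 2500. The deposited table holds raw read counts and FPKM values per gene for each sample, made by the authors. The submitters' processing notes name HISAT2 2.0.4, StringTie 1.3.0 and GRCh38 (hg38), and the counting tool, its strand setting and the annotation release are not given in the sources used here. Groups were taken from the sample titles.

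Counts were tested with edgeR 4.0.16 (R 4.3.3) by the quasi-likelihood F test on all 6 samples, with trimmed-mean scaling, filterByExpr at a minimum count of 10 and Benjamini-Hochberg adjustment over 15089 genes at 0.05. The study's methods name limma, which was run on voom values as an alternative because the table holds counts. Members' counts ran from 72 to 4275 per sample, and the biological coefficient of variation was 16.5%. The fits were also run on simulated counts with far fewer changed genes than were called here, which gives no error rate for these data. Every pair of samples differed beyond sampling noise. Alternatives were DESeq2 1.42.0 and its size factors, limma 3.58.1 on voom and on log2(FPKM + 1) or log2(FPKM + 0.1) values with a minimum FPKM of 1, other filters, each sample left out and a replicate block. CPM per kilobase of exons was added after the data were seen. Exon overlaps and lengths came from GENCODE v44, in which 28 members had the same start and end as in the table, and promoters from RefSeq.

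The members and gene lists were chosen with earlier results of these data known. Named genes were METTL16, the called members with the 8 highest and 8 lowest fold changes, MRPL49, the MRPS18 family, the 3 highest and 3 lowest by FPKM, the 3 with the widest replicate ratio, and up to 3 called genes per direction from each further list. MRPL51, MRPS25 and the neighbours of overlapping genes were named elsewhere after their values were seen.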

Additional observations from a re-analysis of the deposited data

How the results depend on the processing

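Over the alternatives that changed the filter, the scaling or the test, 8 to 11 genes were called higher and 8 to 16 lower, against 8 and 12 in the report, and the median log2 fold change of the 78 stayed between 0.00 and 0.02. With each sample left out in turn, 6 to 10 were called higher and 8 to 10 lower, and the median ran from 0.00 to 0.03. A fit with the replicate number as a block (replicate block) called 11 higher and 11 lower. It shared 19 of the 20 calls, and MRPL41 was lost (adjusted p = 0.0699). The labels do not say that the numbers mark a shared culture, and deviations of same-numbered samples correlated by only 0.0253, 0.0371 and 0.0298, although every sample correlated best with its own number.

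Among the genes whose values are given, 4 changed sign when 1 sample was left out, and none of the 4 was called. The log2 fold change of MRPL49 ran from -0.12 to 0.92, that of MRPL36 from -0.032 to 0.39, that of MRPL42 from -0.18 to 0.0307 and that of MRPS18B from -0.005 to 0.11, and the cause was not tested. MRPL20 also lost its call without the filter (adjusted p = 0.0721) and with log2(FPKM + 0.1) (adjusted p = 0.055). MRPS18A and MRPL55 passed in both FPKM fits, and MRPL23 passed in DESeq2's Wald test and with log2(FPKM + 1). With 3 samples per group, genes such as MRPL34 and MRPL49 had intervals too wide to place even the direction.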
